A study of Mus musculus with 36 samples.

Results

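Chromatin accessibility was compared between mouse bone marrow-derived dendritic cells given the ligand labelled HMW alone and cells of the control group. The comparison rests on 4 of the 36 libraries of the series, 2 labelled HMW and 2 labelled Ctrl, chosen by their labels and not by any measured value. It covers 119464 peaks, which are all of the 119751 deposited peaks that lie outside the mitochondrial genome and had enough reads to be tested. Both groups came from C57BL/6 bone marrow of female mice aged 6 to 8 weeks, grown in the growth factor GM-CSF at 15 ng/mL, and the series is described as a stimulation of 6 h. The labels do not spell out HMW, and give no dose for it, no vehicle for the control and no batch. The design of the series sets pattern recognition receptor ligands singly and in combination against control. It also holds PAM, LPS and SeV groups, each alone, and HMW together with PAM (PAM, HMW), with LPS (LPS, HMW) or with both (PAM, LPS_HMW), again with 2 libraries a group. Nothing states whether 2 libraries of a group came from separate cultures or animals. The p-values measure the spread between libraries of a group, pooled over all 36 libraries of the series, and this spread may be technical.

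ATAC-seq uses a transposase that inserts sequencing adapters where DNA is accessible, so reads accumulate at promoters and enhancers. Dendritic cells sense microbial products through Toll-like receptors and cytosolic nucleic acid sensors. These receptors act through NF-kappaB and AP-1 factors, which switch on cytokine genes, and through interferon regulatory factors, which switch on interferon and, by way of secreted interferon, the interferon-stimulated genes. PU.1 is the factor that keeps many enhancers open in resting myeloid cells. Values below are in CPM, the counts of a peak relative to its library's size, scaled by TMM, a method that sets library factors so that most peaks do not differ, and a log2 difference of 1 is a doubling. A peak is called opened or closed when its adjusted p from edgeR's quasi-likelihood test was under 0.05 and its level with HMW was above or below control. A promoter peak overlaps 1 kb either side of an annotated start site. Where the gene table gave no start site the peak is named a gene-end peak, since either end of the gene was then accepted. Both kinds enter the counts of promoter peaks.

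Control libraries held 11213646 and 11965163 counts in nuclear peaks and the HMW libraries 15064439 and 11597648. The mitochondrial genome took 61.9% and 60.1% of the control counts and 49.9% and 53.4% of the HMW counts, so this share moved with the group; its part in the results was not tested, and share and ligand cannot be told apart between these groups. A set of 17 nuclear peaks with a mean over 1000 CPM took a further 36.5% and 34.7% of the nuclear counts in control against 26.7% and 30.5% with HMW. One of them, at chr1:24611386-24616337 in the files' build mm10, alone took 27% and 25.1% in control against 16.5% and 19% with HMW. The 17 did not all move the same way. The one at chr2:98666084-98667466 took 1.26% and 1.38% in control against 2.06% and 2.30% with HMW. The labelled cell type was checked at 9 dendritic cell markers. Of these, 8 had a promoter peak, and their summed level was 99.1 and 101 CPM in control and 90.8 and 85.7 CPM with HMW. Promoter peaks of macrophage or monocyte markers summed to 193 and 179 CPM in control and 166 and 155 CPM with HMW. Neutrophil markers had a promoter peak for 1 of 7 genes, at 20.5 and 17.2 CPM in control against 11.8 and 8.62 CPM with HMW, and it was called closed. T cell markers summed to 5.46 and 6.66 CPM in control and 6.67 and 7.32 CPM with HMW, and B cell markers to 5.46 and 6.37 against 4.83 and 6.20 CPM. Fewer cells of a type and lower accessibility per cell cannot be told apart in bulk libraries.

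With HMW, 12743 peaks changed at an adjusted p under 0.05 in edgeR's quasi-likelihood test, 10.7% of all tested. Of these 6224 opened (5.21% of all tested peaks) and 6519 closed (5.46%). The opened peaks had a median log2 difference of 1.46 and the closed peaks one of -0.68, while the median level was 2.45 CPM for opened and 15.8 CPM for closed peaks. Among peaks called in all 3 scalings described below the medians were 1.4 and -1.12. At 233 opened peaks both control libraries had no read, and with these set to their lower bound, against 3 counts over the control group, the median was still 1.46. The HMW libraries lay both above or both below the control libraries in 99.7% of opened and 99.8% of closed peaks, against 52.3% of all tested peaks. The calls were made from these same libraries, so this separation is no independent check of them. The near balance of the directions depends on the scaling. With libraries scaled by total nuclear counts, 13227 peaks were higher and 1201 lower, so the higher share went from 48.8% to 91.7%, and the median of all peaks went from 0.02 to 0.30. Total counts without the 17 highest peaks, a setting chosen after seeing the data, gave 8522 higher and 3051 lower (73.6% higher) with a median of 0.15. Of the opened peaks 5368 were also opened with TMM, total counts and abundance-dependent offsets (3 scalings in all), but of the closed peaks only 1189. No peak was called in opposite directions, and every opened or closed peak named singly below without a remark was called in all 3. Counts of peaks at a gene or in a list are those with TMM unless another scaling is named.

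**Figure D1:**
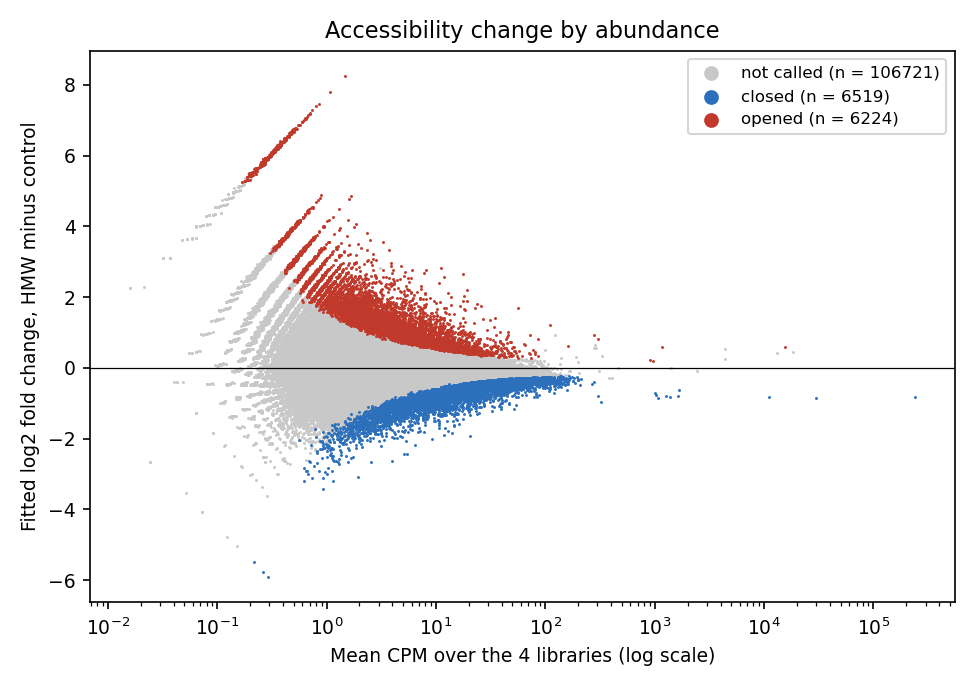
Log2 difference between HMW and control (y axis) of each tested peak against its mean CPM (x axis, log scale), with opened and closed peaks coloured. Opened peaks reach further from 0 (median 1.46) than closed peaks (median -0.68), and most closed peaks lie among the peaks of high mean CPM.

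The share of promoter peaks among opened and closed peaks depends on the scaling. With TMM, promoter peaks made up 7.26% of the opened peaks (95% exact binomial interval 6.63 to 7.94, for counting error only) and 34.0% of the closed peaks (32.8 to 35.1), against 13.3% of all tested peaks. Level moved with this difference: 5312 of the 6519 closed peaks were in the highest of 4 equal bins of mean CPM, where promoter peaks made up 34.4% of all peaks. The median log2 difference of all peaks in these bins, from lowest to highest, was 0.48, 0.12, -0.05 and -0.18. The closed peaks called in all 3 scalings were at promoters in 11.8% of cases, below the 13.3% of all peaks. The opened peaks called in all 3 scalings were at promoters in 7.49%. By total counts alone the shares were 11.8% of opened and 11.7% of closed peaks. Of the 15930 promoter peaks, 452 opened and 2214 closed.

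The interferon-stimulated genes carried the densest opening of the 13 gene lists. Of 379 peaks within 10 kb of these genes, 94 opened (24.8%) and 3 closed, with a median of 0.71 against 0.02 over all tested peaks. Inflammatory cytokine and chemokine genes followed with 52 of 235 opened (22.1%), 4 closed and a median of 0.62. Genes of NF-kappaB signalling and its feedback had 53 of 299 opened, 10 closed and a median of 0.40, and dendritic cell maturation genes 42 of 251 opened, 3 closed and a median of 0.39. Antigen presentation genes had 22 of 150 opened and 0 closed, with a median of 0.38. Stimulus-responsive transcription factors had 30 of 277 opened and 8 closed (median 0.18). With abundance-dependent offsets 5964 of all 119464 tested peaks opened and 4658 closed. Abundance-dependent offsets gave 99 opened and 1 closed for the interferon list, 51 and 4 for the inflammatory list, 62 and 5 for the NF-kappaB list, 43 and 0 for the maturation list, 26 and 0 for antigen presentation and 32 and 4 for transcription factors.

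For the other lists the background is again 5.21% opened and 5.46% closed. Receptors and adaptors that sense microbes had 29 opened and 22 closed of 379 (median 0.12). Glycolysis genes had 13 opened and 12 closed of 204 (0.15), lineage factors of myeloid cells 14 and 19 of 333 (0.04), cell cycle genes 12 and 10 of 162 (0.01), uptake receptors 15 and 16 of 262 (-0.01) and ribosomal protein genes 7 and 5 of 108 (0.05). Cholesterol genes had 0 opened and 10 closed of 165, with a median of 0.02. By total nuclear counts 13227 of all 119464 tested peaks opened and 1201 closed. The cholesterol list then turned to 7 opened and 1 closed of 165. The lineage list turned to 35 opened and 3 closed of 333, shares near those of all peaks under this scaling. Directions in these lists therefore rest on the scaling, while the interferon list had 145 opened and 0 closed of 379 by total counts.

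**Figure D2:**
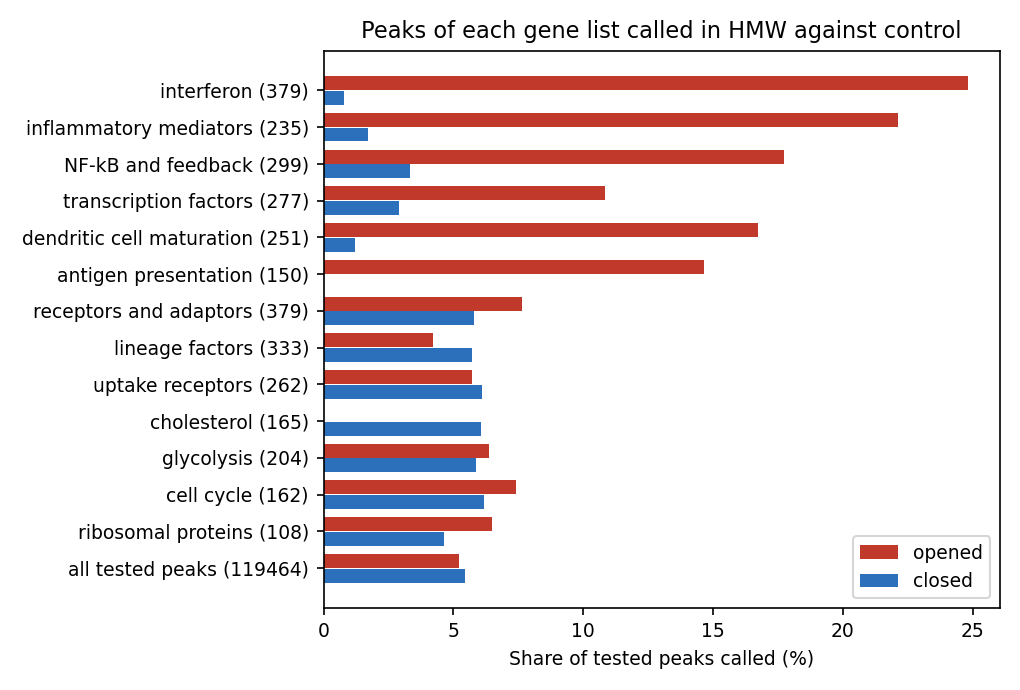
Share of peaks opened and closed with HMW in each gene list and over all tested peaks. The interferon list (24.8% opened) and the inflammatory list (22.1%) lie above the 5.21% of all peaks.

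Among interferon-stimulated genes the promoter of Cxcl10, a chemokine that draws in T cells, gave one of the clearest gains. Its peak (chr5:92344162-92349984, reaching from Art3 over Cxcl10) had 18.6 and 19 CPM in control and 52.7 and 48.0 CPM with HMW, a log2 difference of 1.42 ± 0.12 (SE; adjusted p = 2.4e-22, edgeR's quasi-likelihood test, n = 2 a group). The groups did not overlap. The promoter peak of Oasl1, a protein of the antiviral OAS family (chr5:114922803-114924096), had 10.4 and 11.1 CPM in control and 34.8 and 34.2 CPM with HMW, a rise of 1.68 ± 0.13 (adjusted p = 1.01e-23, same test). Isg15, the ubiquitin-like modifier, had 8.85 and 10.8 CPM at its promoter in control and 18.2 and 16 CPM with HMW, a log2 difference of 0.80. Both HMW libraries were above both controls at each of these genes. Oas3, which makes the second messenger that activates RNase L, had 17.6 and 24.3 CPM against 37.9 and 37.6 CPM (0.84). Gbp5, a guanylate-binding protein that acts against intracellular microbes, had 11.5 and 12.7 CPM against 21.5 and 24.2 CPM (0.91). The promoter of Irf7, the regulatory factor that amplifies interferon, rose from 19.1 and 18 to 30.9 and 31.8 CPM (0.75). That of Isg20, an exonuclease, rose from 30.8 and 31.5 to 58.4 and 61.0 CPM (0.94).

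The 250 bases before the start sites of 5 of these genes are shown because these promoters opened and because their letters differ: 4 hold a run matching the interferon response element (GAAANNGAA), some of them with a kappaB site (GGNNTTTCC), while that of Oasl1 holds neither. The opened promoters of Irf7 and Tnf, not shown, hold neither as well. Matches on either strand are in capitals, as are those to AP-1 (TGANTCA) and, in the closed promoters, PU.1 (GAGGAAGT). Each is written 5′ to 3′ on the gene's strand and ends at the base before the start site (RefSeq, GRCm38.p6).
Cxcl10: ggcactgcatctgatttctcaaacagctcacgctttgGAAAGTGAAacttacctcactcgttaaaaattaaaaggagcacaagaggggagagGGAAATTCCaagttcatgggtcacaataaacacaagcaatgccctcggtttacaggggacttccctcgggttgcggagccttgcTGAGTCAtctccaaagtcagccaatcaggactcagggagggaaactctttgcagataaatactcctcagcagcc
Isg15: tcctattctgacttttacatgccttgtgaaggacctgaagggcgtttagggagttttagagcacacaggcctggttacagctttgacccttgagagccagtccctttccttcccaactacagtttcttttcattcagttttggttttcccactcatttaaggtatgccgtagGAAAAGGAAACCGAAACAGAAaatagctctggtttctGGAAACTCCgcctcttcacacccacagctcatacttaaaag
Oas3: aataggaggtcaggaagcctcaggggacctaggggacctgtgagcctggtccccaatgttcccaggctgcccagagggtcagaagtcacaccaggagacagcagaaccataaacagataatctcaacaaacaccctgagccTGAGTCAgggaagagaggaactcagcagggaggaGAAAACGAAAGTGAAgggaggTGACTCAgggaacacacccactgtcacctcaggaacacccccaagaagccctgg
Gbp5: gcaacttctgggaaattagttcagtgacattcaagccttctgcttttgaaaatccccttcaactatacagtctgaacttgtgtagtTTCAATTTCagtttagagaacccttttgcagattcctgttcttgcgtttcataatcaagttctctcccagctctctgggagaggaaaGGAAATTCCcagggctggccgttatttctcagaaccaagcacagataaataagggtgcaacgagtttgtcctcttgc
Oasl1: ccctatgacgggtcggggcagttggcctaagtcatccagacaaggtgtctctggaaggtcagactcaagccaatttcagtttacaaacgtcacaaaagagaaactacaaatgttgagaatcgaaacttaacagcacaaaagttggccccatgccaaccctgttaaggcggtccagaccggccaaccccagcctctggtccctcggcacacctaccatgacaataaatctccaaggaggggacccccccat
In Cxcl10 the GAAANNGAA match begins 213 bases before the start site, the kappaB match 158 and the AP-1 match 74 bases before it. Isg15 has 3 overlapping GAAANNGAA matches from 78 bases before the start site and a kappaB match at 41, and Oas3 has 2 overlapping ones from 75 bases before it. Gbp5 has one at 164 bases and a kappaB match at 77. A match is a description of letters and not evidence of binding.

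Across promoters the letters were counted by the state of the peak. GAAANNGAA stood in 16.4% of the 238 promoters whose window lay in an opened peak, against 5.87% of 2182 in closed peaks and 7.20% of all 12072 in a tested peak. GGNNTTTCC stood in 14.7%, 6.00% and 6.28% of the same sets, and TGANTCA in 10.5%, 4.08% and 4.95%. The PU.1 letters stood in 2.10% (5 promoters), 3.48% and 3.42%. In the 127 promoters closed in all 3 scalings the shares were 4.72% for GAAANNGAA, 2.36% for GGNNTTTCC, 6.30% for TGANTCA and 6.30% for GAGGAAGT. None of these differences was tested. Of all 21262 promoters of this length, 8.14% hold GAAANNGAA, 5.74% GGNNTTTCC, 6.99% TGANTCA and 3.13% GAGGAAGT.

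Of the interferon list's 59 promoter and gene-end peaks 20 opened (33.9%) and none closed, against 2.84% opened and 13.9% closed of all promoter peaks. Some genes of the list opened inside the gene while their promoter peak was not called. At Rsad2, the antiviral enzyme viperin, the peak inside the gene (chr12:26438731-26453446) went from 25.6 and 28.0 CPM to 79.8 and 93.2 CPM with HMW, 1.69 ± 0.10 on the log2 scale (adjusted p = 2.63e-35, edgeR's quasi-likelihood test), while its promoter peak differed by 0.31 and was not called. The peak inside Ifit2, which binds viral RNA (chr19:34572687-34579247), went from 8.85 and 5.02 CPM to 27.2 and 35.7 CPM, 2.19 ± 0.15 (adjusted p = 8.15e-27, same test), and its promoter peak differed by 0.17 and was not called. Both HMW libraries were above both controls at the 2 peaks inside the genes. The promoter peak of Ifih1 (0.11), the cytosolic RNA sensor, was not called either. The promoter peak of Ifnb1, the interferon-beta gene itself, had 3.28 and 1.83 CPM in control and 2.92 and 2.59 CPM with HMW (0.14), and these values overlap. Iigp1, an interferon-induced GTPase, had a gene-end peak at 0.219 and 0 CPM in control and 2.79 and 3.71 CPM with HMW, 4.85 ± 0.67 on the log2 scale, a value that rests on few control counts.

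Many peaks opened side by side at a few genes, a selection named here after their values were seen. Of all tested peaks 5.21% opened and 5.46% closed. Within 10 kb of Rnf213, a large ubiquitin ligase, 46 of 83 tested peaks opened and none closed, with a median log2 difference of 2.04, and 39 of them opened in all 3 scalings. At Oasl1 14 of 20 peaks opened (median 1.96), at Cmpk2, the nucleotide kinase beside Rsad2, 9 of 17 (1.77), and at Slc7a2, an arginine transporter, 15 of 52 (1.23). Acsl1, which activates fatty acids, had 14 of 43 opened and 1 closed, a closed call that did not hold in all 3 scalings. Peaks opened in all 3 scalings numbered 12 at Oasl1, 9 at Cmpk2, 14 at Slc7a2 and 10 at Acsl1. Cd274, which encodes the checkpoint ligand PD-L1, had 8 of 19 opened, all 8 in all 3 scalings. Slco3a1 had 12 of 64 opened and 2 closed, and Lpp 11 of 87 opened and 0 closed. The longest run of opened peaks, 10 in a row, lay at chr6:47650610-47686974 from Gm40369 to Gm40363. Its median log2 difference was smaller, at 0.48. In all, 3702 of the 17326 genes with a tested peak had an opened one, 4498 had a closed one and 999 had both.

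Chemokine and cytokine genes opened next to these. Among promoter and gene-end peaks with a mean of at least 5 CPM, the opened peak with the largest fold lay over one end of Ccl5, a chemokine for T cells and monocytes, and the start of Heatr9 (chr11:83521831-83527834). It had 5.14 and 4.44 CPM in control and 31.0 and 29.5 CPM with HMW, a log2 difference of 2.66 ± 0.16 (adjusted p = 1.92e-34, edgeR's quasi-likelihood test). A peak at the other end of Ccl5 also opened, from 3.61 and 3.47 to 10.7 and 11.6 CPM (1.65). A gene-end peak of Nos2, the inducible nitric oxide synthase (chr11:78959292-78963606), also overlapped Lgals9. It lay at the end of Nos2 with the higher coordinate, 78960226, which need not be its start. The peak had 2.84 and 2.22 CPM in control against 10.9 and 8.10 CPM with HMW, 1.93 ± 0.26. A gene-end peak of the chemokine gene Ccl4 rose by 1.86, from 2.29 and 2.6 to 8.58 and 9.39 CPM. The HMW and control libraries did not overlap at any of these peaks.

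The promoter of Il6, the acute-phase cytokine, had 6.88 and 8.88 CPM in control and 12.9 and 15.8 CPM with HMW, a log2 difference of 0.85 ± 0.17 (adjusted p = 0.000114, edgeR's quasi-likelihood test). That of Tnf had 23.3 and 22.0 CPM against 39.2 and 39.98 CPM (0.81). Promoters of the neutrophil chemokine Cxcl1 (1.4) and of Acod1, which makes itaconate (0.62), opened as well. The promoter of Cxcl2 opened by 0.34, a call lost when either control library or the first HMW library was left out. Of 52 promoter and gene-end peaks of this list 18 opened and none closed. Those of Il1b (0.32), Il10 (-0.10, the strongest of its peaks), Ptgs2 (-0.16) and Ccl2 (-0.36) were not called. A peak inside Il12b, which encodes a subunit of interleukin-12, closed, from 10.4 and 10.8 to 4.70 and 3.79 CPM (-1.31). It was the only closed one of the 6 peaks at Il12b, and 1 other opened. The promoter of Il6 is shown for its kappaB letters 43 bases before the start site and AP-1 letters at 249, in capitals.
Il6: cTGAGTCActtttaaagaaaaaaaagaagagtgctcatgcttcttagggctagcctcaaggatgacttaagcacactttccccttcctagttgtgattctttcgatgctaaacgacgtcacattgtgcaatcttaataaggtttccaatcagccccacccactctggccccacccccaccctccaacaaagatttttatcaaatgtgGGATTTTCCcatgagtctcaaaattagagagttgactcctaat

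**Figure D3:**
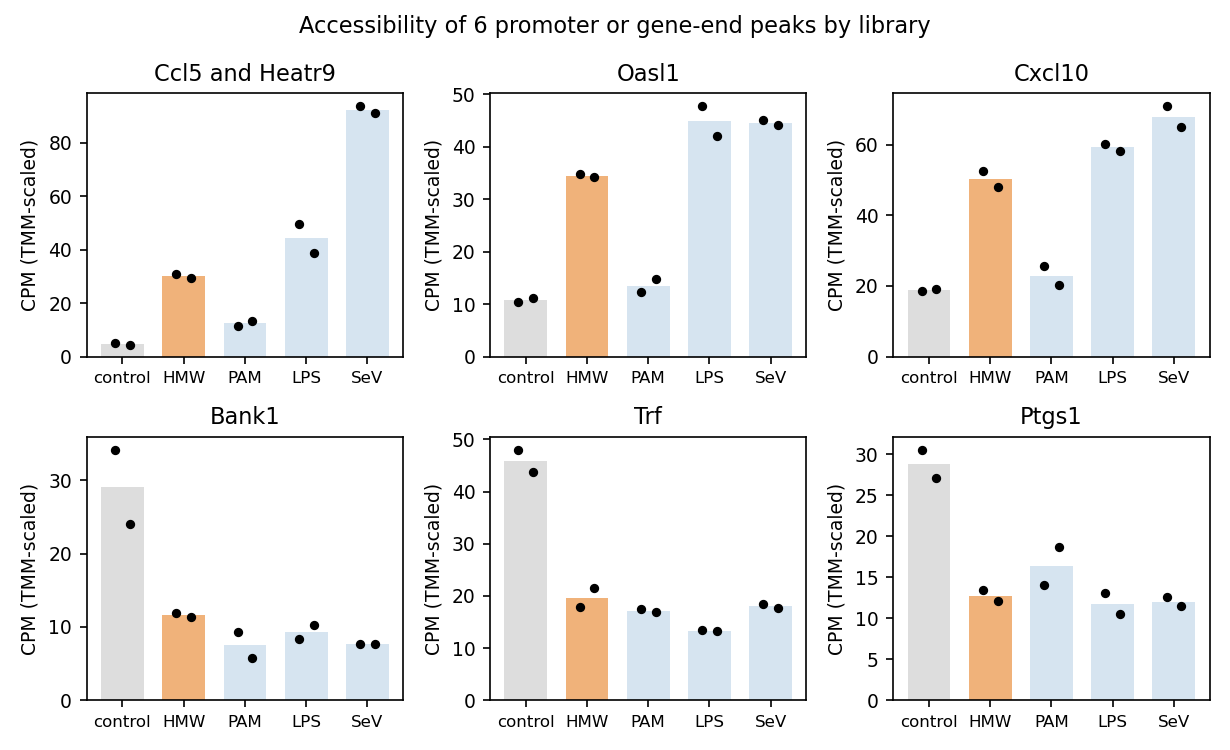
CPM (y axis) at 6 promoter or gene-end peaks in the control, HMW, PAM, LPS and SeV groups; points are libraries and bars the mean of 2. Both HMW libraries lie above both controls at Cxcl10 (52.7 and 48.0 against 18.6 and 19 CPM) and below them at Ptgs1 (13.5 and 12.1 against 30.6 and 27.1 CPM).

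The NF-kappaB list had 10 of 35 promoter and gene-end peaks opened and 3 closed, and the maturation list 10 of 33 opened and 1 closed. Of all promoter peaks 2.84% opened and 13.9% closed. With abundance offsets and by total counts, 0 of these promoter and gene-end peaks closed in either list. Not all members moved: none of the 6 peaks of the inhibitor gene Nfkbia or the 14 of the costimulatory gene Cd80 was called, and Zc3h12a, which encodes an RNase that degrades cytokine transcripts, had 3 of 8 closed. Over all peaks of the NF-kappaB list 10 closed with TMM but only 1 by total counts, so the Zc3h12a calls did not all hold across the scalings. Nfkbia, Cd80, Zc3h12a and the genes named next were picked after their values were seen. Promoter or gene-end peaks rose at Tnfaip3, which encodes the NF-kappaB inhibitor A20 (1.48), at Socs3 (0.93) and Socs1 (0.67), inhibitors of cytokine receptors, and at the lymphoid activation gene Cd69 (1.58). The gene-end peak of the costimulatory receptor Cd40 went from 9.83 and 11.8 to 25.7 and 23.0 CPM (1.17). A peak at ends of both complement genes C2 and Cfb rose by 1.49. Other promoter and gene-end peaks among the 10 with the largest rise at a mean of at least 5 CPM belonged to Bace2, a protease (1.79), Cst7, the protease inhibitor cystatin F (1.75), Rnf135, a ubiquitin ligase of the RNA sensing pathway (1.72), Parp14 (1.67) and Actb, the gene of beta-actin (1.58). Bace2 went from 10.2 and 10.9 CPM to 36.5 and 36.7 CPM (chr16:97443785-97449053).

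At the sensors, 3 of 59 promoter and gene-end peaks opened (5.08%) and 6 closed (10.2%), shares near the 2.84% and 13.9% of all promoter peaks. The opened ones belonged to Dhx58, a regulator of RNA sensing (0.74), Zbp1, a sensor of Z-form nucleic acids (0.37), and Irak3, an inhibitor of Toll-like receptor signalling (0.36). The gene-end peak of Tlr4, the receptor of LPS, was called closed at -0.34, from 69.2 and 69.3 to 52.7 and 57.0 CPM, but lost the call with abundance offsets (-0.15) and with total counts (-0.06). Closed calls at Ticam1 (-0.38) and Irak4 (-0.29), adaptor and kinase of Toll-like receptors, were lost under the same scalings. A promoter or gene-end peak of Tlr8 was closed with TMM as well. Of the 59 peaks 2 closed with abundance offsets and 0 by total counts, so no closed call held in all 3 scalings. Of all 15930 promoter peaks 735 and 140 closed under these 2 scalings. Within 10 kb of Tlr4, 4 of 9 peaks closed and 1 opened. Peaks of Myd88 (-0.16), the shared adaptor, Tlr2 (-0.27), Tlr3 (0.19) and Tlr9 (0.44) were not called.

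By p-value and by size the strongest opened peaks away from promoters included one inside Ell2, an elongation factor (chr13:75754043-75755548), at 2.84 and 2.70 CPM in control and 20.6 and 18.8 CPM with HMW. It rose by 2.83 ± 0.19 (adjusted p = 2.02e-29, edgeR's quasi-likelihood test). Peaks near Kcnk10 and inside Kalrn had no read in either control library. With HMW they had 2.67 and 3.19 CPM, and 1.72 and 2.59 CPM. Set against 3 counts over the control group, they were at least 18.8-fold and at least 13.6-fold higher. Peaks near Mbl2 (4.78), Kdm7a (4.48), Dse (4.18), Atp8b1 (4.15) and Myo10 (4.07), and inside Gm128 (4.25) and Ms4a4d (4.17), completed, with the Iigp1 peak above, the 10 largest rises of peaks with a mean of at least 1 CPM, all from control levels of at most 0.289 CPM.

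Peaks opened over and upstream of the gene of miR-155, a microRNA induced in activated myeloid cells. This locus was picked after its values were seen. The peak over its hairpin (chr16:84711200-84714913; hairpin at chr16:84714140-84714204, within the lncRNA gene Mir155hg at chr16:84713023-84715245) had 14.3 and 9.45 CPM in control and 38.7 and 40.7 CPM with HMW, 1.75 ± 0.13 on the log2 scale (adjusted p = 2.33e-26, edgeR's quasi-likelihood test). A peak further upstream, nearest to Mrpl39 (chr16:84602917-84604541), went from 7.10 and 7.24 to 30.0 and 28.5 CPM (2.03). Of the 39 tested peaks between 84581346 and 84736149 on chromosome 16, 15 opened and 1 closed, against 5.21% and 5.46% of all tested peaks, and uncalled peaks lay between the opened ones. The mature microRNAs are shown with the seed, bases 2 to 8, in capitals (RefSeq, GRCm38.p6); the arms do not share a seed.
mmu-miR-155-5p: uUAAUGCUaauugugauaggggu
mmu-miR-155-3p: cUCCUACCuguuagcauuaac
Over all microRNA genes, 120 tested peaks held a hairpin, of which 6 opened (5.00%) and 18 closed (15.0%). Over all tested peaks these shares were 5.21% and 5.46%. Most of the closed hairpin peaks were promoter peaks, and of all promoter peaks 13.9% closed with TMM. Only the closed peak with the hairpin of Mir5130 was also called closed by total counts. The opened promoter peak of Rnf213 (0.86) holds another hairpin, of Mir1932.

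**Figure D4:**
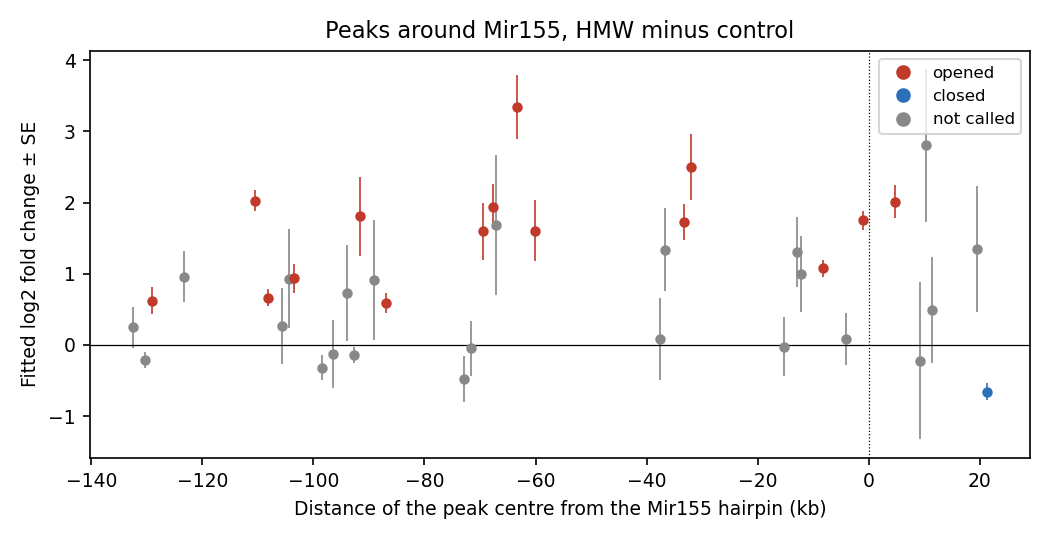
Log2 difference between HMW and control (± SE, y axis) of the 39 tested peaks around Mir155, by distance of the peak's centre from the hairpin in kb. Opened peaks (15) reach from the upstream side to just past the hairpin, and the single closed peak lies further downstream.

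The closed peaks named here closed in all 3 scalings. The gene-end peak of Trf, transferrin (chr9:103229882-103231149), had 48.1 and 43.8 CPM in control and 17.8 and 21.5 CPM with HMW, a log2 difference of -1.23 ± 0.14 (adjusted p = 1.05e-12, edgeR's quasi-likelihood test). The promoter of Ptgs1, which encodes cyclooxygenase-1 (chr2:36230127-36231272), had 30.6 and 27.1 CPM against 13.5 and 12.1 CPM, -1.17 ± 0.17. Control and HMW libraries did not overlap at these peaks. Bank1, a scaffold in B cell and myeloid signalling, fell at its promoter from 34.2 and 24.0 to 11.9 and 11.3 CPM (-1.32). Dhrs3, a retinal reductase, fell from 51.9 and 58.0 to 22.6 and 26.2 CPM (-1.18). Mef2c, a myeloid and lymphoid lineage factor, fell from 38.1 and 35.8 to 18.1 and 17.5 CPM (-1.05). Also among the 10 largest falls of promoter or gene-end peaks at a mean of at least 5 CPM were those of Dock1 (-1.34), a regulator of Rac, Pop1 (-1.22), Gsta3 (-1.21), Mr1, which presents microbial metabolites (-1.16), and Jam3 (-1.16). The Mr1 call was lost without the second control library. Away from promoters, peaks near the scavenger receptor gene Cd36 (-1.81) and the death ligand gene Fasl (-3.08), inside Zdhhc14 (-2.64) and Adam22 (-1.04) and near Adam6b (-1.16) closed. Cd36 moved both ways, with 2 of its 34 peaks opened and 3 closed. The peak with the largest fall, inside Fshr (-3.20), and those of Ccdc54, Rassf8, S1pr1, Rasa1, Panx1 and Dhx9 among the 10 largest falls lost their call when 1 library of the 4 was left out.
Promoters of Bank1 and Ptgs1 are shown as the closed counterparts of those above. Bank1 holds GAAANNGAA 119 bases before its start site, and Ptgs1 holds the PU.1 letters 24 bases before it.
Bank1: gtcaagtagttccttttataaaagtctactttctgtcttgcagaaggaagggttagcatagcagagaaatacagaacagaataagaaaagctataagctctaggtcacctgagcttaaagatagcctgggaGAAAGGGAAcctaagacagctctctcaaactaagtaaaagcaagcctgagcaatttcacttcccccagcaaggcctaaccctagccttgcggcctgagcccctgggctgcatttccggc
Ptgs1: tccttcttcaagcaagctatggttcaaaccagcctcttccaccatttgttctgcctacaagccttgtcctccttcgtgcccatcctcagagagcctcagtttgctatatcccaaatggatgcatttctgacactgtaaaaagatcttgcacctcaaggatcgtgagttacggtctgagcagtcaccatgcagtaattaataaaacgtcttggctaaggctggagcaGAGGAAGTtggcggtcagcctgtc

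The HMW effect was also measured in libraries that the first comparison does not use, by adding HMW to another ligand. HMW added to PAM changed 3182 peaks (2.66% of all tested), 2026 higher (1.70%) and 1156 lower (0.968%). Of the 6224 peaks opened by HMW alone, 890 were higher (14.3%) and 52 lower, with a median of 0.31 against -0.01 over all peaks. Of the 6519 closed peaks, 376 were lower (5.77%) and 11 higher, with a median of -0.18. Of the closed peaks called in all 3 scalings 122 of 1189 were lower, and their median was -0.31. The mitochondrial share was 50.5% and 48.5% with PAM and 48.7% and 52.0% with PAM and HMW, so these groups overlap in it.

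Interferon-stimulated genes again had the most peaks higher when HMW was added to PAM, of the lists given here. Their list had 80 of 379 peaks higher and 1 lower (median 0.58), while the inflammatory list had 23 of 235 higher and 7 lower (0.11) and the NF-kappaB list 7 of 299 higher and 3 lower (0.04). Ifit2 rose by 2.98 inside the gene, the Ccl5 and Heatr9 peak by 2.25, Oasl1 by 1.59 and Cxcl10 by 1.00. Il6 (-0.07), Tnf (-0.23), Ell2 (-0.20) and the Mir155 peak (0.18) were not called. With PAM alone the Mir155 peak already stood at 58.7 and 48.8 CPM and the Ell2 peak at 40.8 and 54.5 CPM, above the HMW libraries in each case, while Ifit2 stood at 4.88 and 2.82 CPM and Oasl1 at 12.3 and 14.7 CPM, below them. Dendritic cell maturation genes had 19 of 251 peaks higher and 1 lower (0.18). Gsta3, one of the closed promoters, was also lower (-1.12).

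HMW added to LPS changed 77 peaks (0.0645%), 30 higher and 47 lower in edgeR's quasi-likelihood test, with 9817 at an unadjusted p under 0.05. The mitochondrial share was 44.6% and 44.1% with LPS and 49.8% and 53.4% with LPS and HMW, and its part in these counts was not tested. Of the peaks opened by HMW alone, 8 were higher and 8 lower, with a median of 0.03. HMW added to PAM and LPS together changed 1 peak (0.000837%), with 6075 at an unadjusted p under 0.05, and the medians of opened and closed peaks were 0.01 and -0.04. Cxcl10 (-0.12), Oasl1 (-0.13) and Ifit2 (-0.02) were not called with HMW on top of LPS. Oasl1 stood at 47.8 and 42.0 CPM with LPS alone, above the 34.8 and 34.2 CPM with HMW alone.

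**Figure D5:**
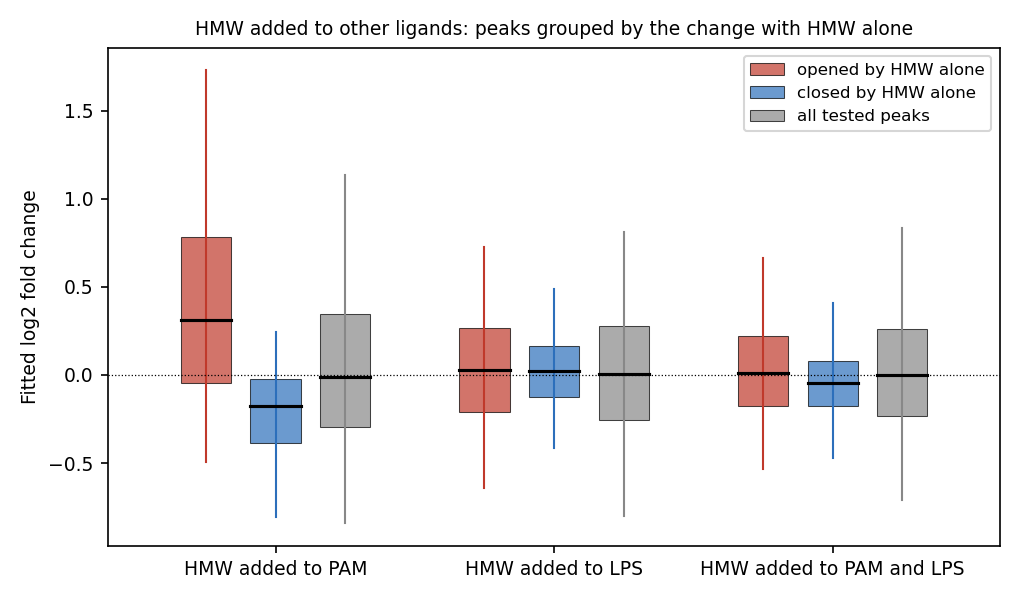
Distribution of log2 differences when HMW was added to PAM, to LPS or to both, for peaks opened or closed by HMW alone and for all tested peaks. Lines mark medians, boxes the 25th to 75th and whiskers the 5th to 95th percentiles; medians of opened peaks are 0.31, 0.03 and 0.01, and those of closed peaks -0.18, 0.02 and -0.04.

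Whether the HMW effect differed with a second ligand present was tested by interaction terms, which share the control and HMW libraries with the first comparison. The HMW effect differed with PAM at 1856 peaks (1.55%), 563 higher and 1293 lower than without it. It differed with LPS at 5833 peaks (4.88%), 2703 higher and 3130 lower. With LPS the interaction was negative at 65 of 379 interferon list peaks and positive at 1. The list median was -0.83, against -0.03 over all 119464 tested peaks. With PAM the interaction was negative at 5 of the 379 and positive at 1, shares near those of all tested peaks. At inflammatory genes it was negative at 23 of 235 peaks and positive at 3 with PAM (median -0.34 against -0.01 over all peaks). With LPS it was negative at 38 of the 235 inflammatory list peaks and positive at 3 (median -0.67). The peaks near Kcnk10 and inside Kalrn had the lowest interactions with LPS. Near Kcnk10 the level was 2.47 and 2.97 CPM with LPS and 2.29 and 2.78 CPM with LPS and HMW. The lowest interaction with PAM, near Crebzf, rested on 1 HMW library at 9.91 CPM against 0.862 CPM in the other.

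HMW was also set directly against PAM, LPS and SeV alone, comparisons that share the HMW libraries but no control library. Against PAM, 14498 peaks differed (12.1%), 5922 higher with HMW (4.96%) and 8576 lower (7.18%). The interferon list was higher with HMW at 114 of 379 peaks and lower at 11 (median 0.77 against 0.03 over all peaks), and the inflammatory list higher at 12 of 235 and lower at 52 (-0.25). A peak inside Cmpk2 had 2.48 and 3.02 CPM with HMW and 0.153 and 0 CPM with PAM (5.03), and one inside Rnf213 had 2.35 and 3.53 against 0.229 and 0 CPM (4.59). Peaks inside Samd12 (-5.56) and Cyb5r4 (-4.70) and near Ibtk (-4.98) were the furthest below PAM. The Ibtk peak had 1.33 and 0.345 CPM with HMW and 28.2 and 29.5 CPM with PAM.

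Against LPS fewer peaks differed, 4430 (3.71%), 1686 higher with HMW (1.41%) and 2744 lower (2.30%). Of the interferon list 20 of 379 peaks were lower and 3 higher (median -0.21), and of the inflammatory list 28 of 235 were lower and 2 higher (-0.35), against a median of 0.00 over all peaks. Il6 was at 12.9 and 15.8 CPM with HMW and 24.9 and 24.2 CPM with LPS, a log2 difference of -0.78. Against SeV 10818 peaks differed (9.06%), 4728 higher (3.96%) and 6090 lower (5.10%), with 53 interferon peaks lower and 9 higher. At the Ifnb1 promoter peak HMW had 2.92 and 2.59 CPM and SeV 20.3 and 22.9 CPM (-2.96; adjusted p = 5e-22, edgeR's quasi-likelihood test). At the closed Trf peak these ligands also stood below control, at 17.5 and 16.8 CPM with PAM, 13.5 and 13.2 CPM with LPS and 18.4 and 17.6 CPM with SeV, against 17.8 and 21.5 CPM with HMW.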

How the data were processed

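The deposited table holds raw read counts per peak for 36 ATAC-seq libraries in 18 groups of 2. Per the submitters' processing notes the authors used the mm10 build, Bowtie2 2.2.9, MACS2 (listed with version 1.4), bedtools and featureCounts; their order and settings are not given in the sources used here. The counts are as deposited by the authors, and the single mitochondrial peak was left out of sizes and tests. Nuclear counts ran from 8181254 to 21985891 per library.

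Counts were filtered with filterByExpr (minimum count 10), scaled by TMM and fitted with edgeR 4.0.16 (quasi-likelihood test, robust, 1 coefficient per group, all 36 libraries) in R 4.3.3, with Benjamini-Hochberg adjustment over all tested peaks of a comparison and a threshold of 0.05. The scripts were tested on simulated counts. SE is the absolute log2 difference divided by the square root of F. Genes were placed with RefSeq (GRCm38.p6); a list's peaks overlap a gene body or lie within 10 kb. A start site was given for 17491 genes and both gene ends were used for the others. Mx1 and Mx2 of the interferon list matched no entry and were not analysed here. Alternatives were DESeq2 1.42.0, its size factors, total counts, loess offsets by abundance (limma 3.58.1), no filter, the mitochondrial peak kept, thinned libraries, only the groups compared, a replicate block and leaving out each library. Leaving out the highest peaks was chosen after seeing the data.

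The members and gene lists were chosen with earlier results of these data known. Named peaks are the 10 highest and lowest log2 differences among called peaks (mean CPM of at least 1, libraries apart, 1 per gene), the same among promoter peaks (mean CPM of at least 5), the 5 lowest p-values in each direction, the 2 highest and lowest called peaks per list, promoter peaks of the sensor, inflammatory and interferon lists, and the 3 or 2 extremes of the other comparisons. The text gives a selection of these, leaves out some items that are not reported here, and names those outside the rule as chosen after their values were seen.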

Additional observations from a re-analysis of the deposited data

Results flagged for a closer look

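The effect of HMW differed with a second ligand present, by interaction terms in edgeR's quasi-likelihood test. With PAM the difference passed at 1856 peaks, 563 positive and 1293 negative. With LPS it passed at 5833 peaks, 2703 positive and 3130 negative. Both interactions share the control and HMW libraries with the comparison of HMW alone.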

How the results depend on the processing

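The 12743 peaks changed by HMW became 11531 with DESeq2, 10918 with only the groups compared, 9206 in thinned libraries and 12730 with the replicate block. Same-numbered libraries did not deviate together: over 153 pairs of groups r ran from -0.040 to 0.030, and none was over 0.1, so the libraries share only a number and no call lost under the block is read as a weaker effect. With a library left out its group has 1 library, which is then assumed to vary like the other groups.

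Scaling moved the directions. By total counts 13227 peaks opened and 1201 closed, and without the highest peaks 3051 closed. HMW added to LPS changed 161 peaks with DESeq2, 220 with only the groups compared and 356 by total counts, against 77. HMW added to PAM and LPS changed 1 peak, against 18 with only the groups compared, 3 by total counts, and 0 with DESeq2, abundance offsets, the replicate block and total counts without the highest peaks. By total counts the interaction with PAM passed at 4004 peaks and that with LPS at 11987. Gene lists had 124 called peaks within 1 kb of a start site.

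Promoter peaks made up 3.75%, 3.52%, 5.37% and 15.9% of opened peaks in 4 bins of rising mean CPM, and 3.92%, 4.07%, 3.85% and 40.8% of closed ones. For opened peaks the share was 10.5% with offsets, 11.8% by total counts and 9.22% by total counts without the highest peaks, and for closed peaks 15.8%, 11.7% and 25.9%. Of closed peaks called in all 3 scalings, 10.3% were also lower when HMW was added to PAM.

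Leaving out 1 library gave 5174 to 8707 changed peaks (5174 without control 1, 8707 without control 2, 6700 without HMW 1, 6399 without HMW 2), 3085 to 4133 opened and 2089 to 4574 closed. It gave 1196 to 1817 for HMW added to PAM, 0 to 12 for LPS and 0 to 21 for both. Interactions ran from 901 to 1878 with PAM and from 2722 to 5180 with LPS. HMW against PAM ran from 7825 to 10469, against LPS from 1766 to 2370 and against SeV from 5133 to 5992. Called list peaks ran from 247 to 334. Of the opened peaks 7.60% to 9.51% were also higher when HMW was added to PAM, and of the closed peaks 1.58% to 2.85% were also lower. Of the 77 peaks followed across the settings, none that was called changed sign. The cause of these shifts was not tested, other than that leaving out a library leaves fewer samples.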
